A study of Mus musculus with 4 samples.

Results

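The genes described here encode antioxidant and glutathione enzymes of pancreatic islets. They are the superoxide dismutases, catalase, glutathione peroxidases, peroxiredoxins, thioredoxins with their relatives, glutathione S-transferases, the enzymes that make and recycle glutathione, and Hmox1, Nqo1 and Srxn1. Membership is set by gene symbol, and each gene was represented by its brightest probe over the 4 arrays. The symbols gave 67 genes with 101 probes, out of 22328 genes that a RefSeq table named on the array.

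Islets of 24-week-old C57BL/6 mice had been released with collagenase, separated on a density gradient and picked by hand, and their total RNA was hybridised to 4 single-colour Agilent arrays, 1 per group. The groups were transgenic males profiled 6 weeks after implantation of E2 (male Tg E2), transgenic females (female Tg), transgenic males labelled as diabetic (male Tg) and wild-type males (male WT). E2 commonly stands for estradiol, the main ovarian estrogen. The labels name neither the transgene nor its promoter, and give neither a diabetic state for the female Tg and male Tg E2 islets nor the number of mice behind each array. With 1 array per group there is no replicate error, so each difference is one between 2 arrays, precision is limited by the number of arrays and no p-value can be given.

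Superoxide dismutases turn superoxide into hydrogen peroxide, which catalase, glutathione peroxidases and peroxiredoxins remove with reducing power from glutathione or thioredoxin. Glutathione S-transferases attach glutathione to reactive compounds, and many of these genes are induced by the transcription factor NRF2 through antioxidant response elements. Rodent beta cells are known for low levels of catalase and of the classical glutathione peroxidase compared with liver.

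A level is the log2 of the processed intensity with the 75th percentile of each array's probes set to 0, so it compares arrays for 1 probe and does not compare genes. A gene was measured in a comparison when its probe was well above background on both arrays, and it was called higher or lower at a difference of at least 2-fold. The scanner software's error model gave the differences of members a standard error (SE) with a median of 0.20 log2 in each of the 4 comparisons. The smallest SE was 0.20 log2 too, so the SE hardly varied among bright probes. It is a value of the model and not a spread measured between arrays. In male Tg over male WT the spot noise alone gave a standard deviation of 0.10 log2. Between 49.9% and 54.8% of spots were well above background on an array. Of the 67 genes, 56 were well above background on all 4 arrays, 2 on 3 arrays and 1 on 1 array. The other 8 were so on none, and they are Gpx5, Gpx6, Gstcd, Gstt4, Prdx6b, Txndc3, Txndc6 and Txndc8.

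Setting male Tg against male WT asks how antioxidant genes stand in transgenic, diabetic male islets. On the male Tg array 16 of 57 measured members were at least 2-fold higher (28.1%), against 15.6% of all measured genes, and 1 was at least 2-fold lower, against 8.68% of all measured genes. Glutathione S-transferases made up 10 of the 16, and the others were the extracellular superoxide dismutase Sod3, the secreted glutathione peroxidase Gpx3, Gpx8, Prdx4, thioredoxin Txn1 and the glutathione synthase Gss. Among the 38 measured members that are not glutathione S-transferases, 6 were higher (15.8%), close to the share of all genes. The median difference was 0.15 log2 over the measured members and −0.21 log2 over all measured genes. The lower one was Txndc16.

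**Figure D1:**
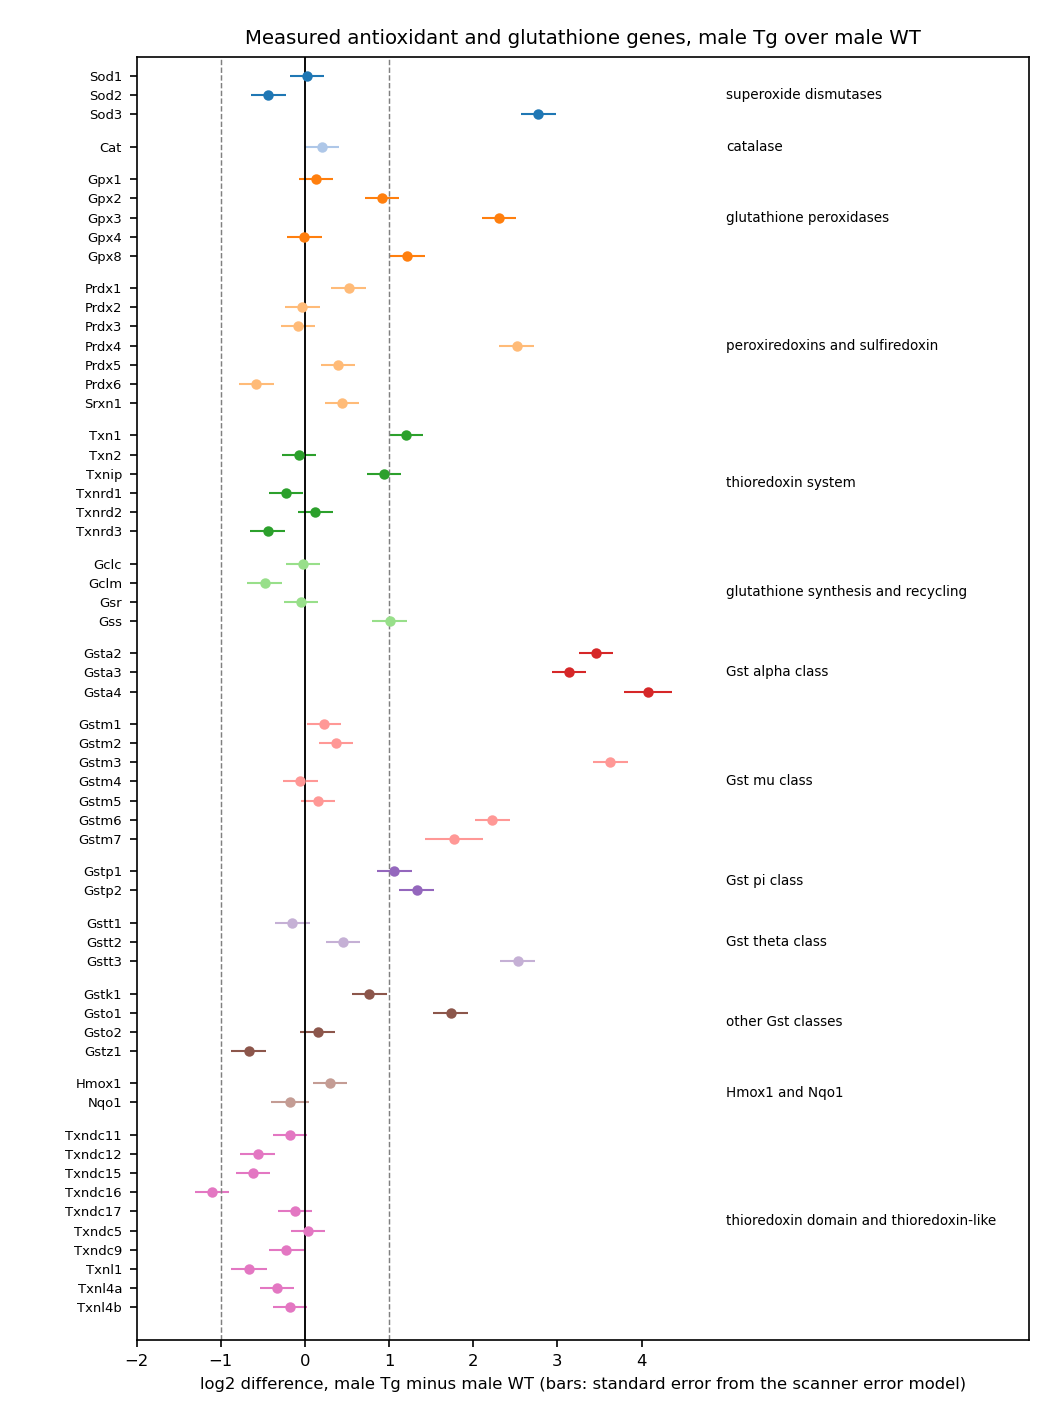
Differences of the 57 measured members between the male Tg and the male WT array (x axis, log2, male Tg minus male WT), grouped by enzyme family, with the SE of the scanner error model as bars and dashed lines at 2-fold. The 16 genes past the right line include all 3 alpha class glutathione S-transferases, and Txndc16 alone lies past the left line.

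Glutathione S-transferases also made up most of the members called lower against male Tg. For male Tg E2 over male Tg, 0 of 57 measured members were higher, against 2.55% of all genes, and 7 were lower (12.3%), against 8.00% of all genes. All 7 were glutathione S-transferases. For female Tg over male Tg, 0 of 56 measured members were higher, against 3.51% of all genes, and 14 were lower (25.0%), against 8.57% of all genes, 9 of them glutathione S-transferases. For male Tg E2 over male WT, 8 of 58 were higher (13.8%), against 8.82% of all genes, and 1 was lower, against 2.64% of all genes. The member medians were −0.26 log2 for male Tg E2 over male Tg (all genes 0.12), −0.42 for female Tg over male Tg (all genes 0.10) and 0.03 for male Tg E2 over male WT (all genes −0.09). These comparisons share the male Tg or male WT array with each other, so a gene that stands high on the male Tg array alone is counted in 3 of them.

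**Figure D2:**
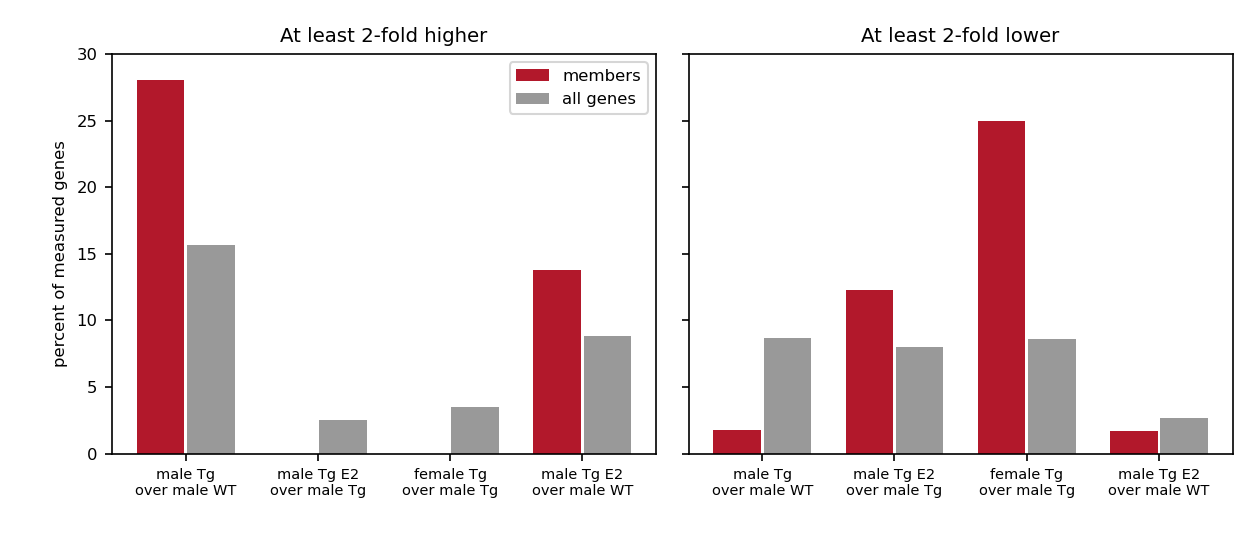
Percent of measured genes at least 2-fold higher (left) or lower (right) in each comparison, for the members (red) and all genes (grey). The tallest member bars are 28.1% higher in male Tg over male WT and 25.0% lower in female Tg over male Tg, and no member was higher in male Tg E2 over male Tg or in female Tg over male Tg.

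Over the 56 genes well above background on every array, the male Tg array held the highest value for 27 genes (48.2%), whereas it did so for 25.7% of all 13888 such genes. The male WT array held the highest value for 18 members (32.1%), against 43.6% of all genes. The female Tg array held the highest value for 2 members (3.57%), against 17.5% of all genes. It held the lowest value for 23 members. The matching count over all genes was not made, so those 23 cannot be read as a trait of the members. The span between the highest and the lowest array had a median of 0.67 log2 over the members and 0.68 log2 over all genes. It was under 0.5 log2 for 19 of 56 members and for 4305 of all 13888 genes, a similar share, and it reached 4.68 log2 among the members.

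All 3 measured alpha class glutathione S-transferases, Gsta2, Gsta3 and Gsta4, were called in male Tg over male WT. Gsta2, which conjugates electrophiles and reduces organic peroxides, had levels of 1.27 in male Tg E2, −0.79 in female Tg, 3.89 in male Tg and 0.43 in male WT. It was 11.0-fold higher in male Tg than in male WT (3.46 log2, SE 0.20) and 25.7-fold lower in female Tg than in male Tg. Gsta3 levels were 1.24 in male Tg E2, −0.78 in female Tg, 2.61 in male Tg and −0.53 in male WT. The male Tg array was highest for both genes, and the male Tg E2 array lay between it and the other arrays. The second probe of Gsta3 gave 2.93 log2 for male Tg over male WT, beside 3.14 for the brightest.

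Gsta4, which removes hydroxynonenal, a product of lipid peroxidation, read −1.66 in male Tg E2, 0.67 in male Tg and −3.41 in male WT. In female Tg its probe was not well above background. It was 16.8-fold higher in male Tg than in male WT (4.07 log2, SE 0.29) and 5.02-fold lower in male Tg E2 than in male Tg. In female Tg it was at least 17.2-fold lower than in male Tg, a bound that takes the detection floor of the female Tg array as its value there. Its probe lies at chr9:78046172-78047344 on the plus strand of mm9, the build of the scanner files, and covers 1173 bases of genome with 60 bases of sequence, so it reads spliced RNA. It is shown because it carries the largest difference of the set in male Tg over male WT, and no base is capitalised.
Gsta4 probe: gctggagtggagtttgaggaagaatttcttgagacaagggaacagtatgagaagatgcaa

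The mu class genes lie side by side on chromosome 3 and did not move as a block. Gstm3 had levels of 0.62 in male Tg E2, 1.01 in female Tg, 3.71 in male Tg and 0.08 in male WT, and was 12.4-fold higher in male Tg than in male WT (3.63 log2, SE 0.20). It was 8.55-fold lower in male Tg E2 and 6.51-fold lower in female Tg than in male Tg, so the other 3 arrays lay within 1 unit of each other. Gstm6 read −0.33 in male Tg E2, −1.22 in female Tg, 1.82 in male Tg and −0.41 in male WT, which made it 4.67-fold higher in male Tg than in male WT. Its 2 other probes measured on both arrays gave 1.68 and 2.80 log2, beside 2.22 for the brightest.

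Gstm7 had low levels of −2.38 in male Tg E2, −2.67 in female Tg, −2.08 in male Tg and −3.86 in male WT. On this probe the male WT array was the lowest, and Gstm7 was 3.42-fold higher in male Tg (1.77 log2, SE 0.34) and 2.79-fold higher in male Tg E2 than in male WT. Another Gstm7 probe read −2.72 in male Tg E2, −3.21 in female Tg, −2.28 in male Tg and −3.11 in male WT, so that female Tg was lowest there. It gave 0.83 log2 for male Tg over male WT and a 1.31-fold higher level in male Tg E2 than in male WT, and the median over the probes lost the 2-fold call in male Tg E2 over male WT. Gstm2 was measured at 3.71 in male Tg E2, 3.08 in female Tg, 4.22 in male Tg and 3.85 in male WT, and was 2.21-fold lower in female Tg than in male Tg. Gstm1, Gstm4 and Gstm5 stayed within 2-fold in all 4 comparisons. The brightest Gstm1 probe has its mm9 position on chromosome 5 although the gene lies on chromosome 3, and the Gstm1 probe on chromosome 3 gave a similar 0.14 log2 for male Tg over male WT, beside 0.23.

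Related transcripts can share a probe, and here only the probe sequences were set against each other. Probes can lie at different places in their transcripts, so this cannot show whether a probe matches a related transcript. Among the chosen probes of the 21 glutathione S-transferase genes the most alike ungapped pair, Gstm1 and Gstm6, shared 31 of 59 bases (52.5%). The second Gstm3 probe (chr3:107769290-107770549, minus strand, mm9) can be aligned without gaps to the Gstm7 probe (chr3:107732073-107733247, minus strand, mm9). The pair is shown because both genes are of the mu class on chromosome 3 and had unequal differences. These probes agree at 40 of 59 bases, and capitals mark the 19 that differ, with the Gstm3 probe shifted by 1 base.
Gstm3 second probe: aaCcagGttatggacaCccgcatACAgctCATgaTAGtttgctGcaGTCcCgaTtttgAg
Gstm7 probe: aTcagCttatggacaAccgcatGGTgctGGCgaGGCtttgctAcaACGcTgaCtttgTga
The second Gstm3 probe gave 1.41 log2 (SE 0.20) for male Tg over male WT, against 3.63 for the brightest, so the sign held and the size did not. Hybridisation of these probes to other transcripts was not tested.

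The pi class genes Gstp1 and Gstp2, whose products are nearly identical proteins, were both called in male Tg over male WT. Gstp1 had levels of 3.74 in male Tg E2, 3.41 in female Tg, 4.38 in male Tg and 3.31 in male WT, a 2.09-fold higher level in male Tg than in male WT. Gstp2 had 6.61 in male Tg E2, 6.20 in female Tg, 7.29 in male Tg and 5.96 in male WT, and was 2.51-fold higher in male Tg than in male WT and 2.12-fold lower in female Tg than in male Tg. The Gstp1 probe (chr19:4035908-4036723, minus strand, mm9) also spans an intron and is shown because signal shared by the 2 genes cannot be told apart here.
Gstp1 probe: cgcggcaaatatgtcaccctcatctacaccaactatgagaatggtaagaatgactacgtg

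Among the remaining classes Gstt3 and Gsto1 followed the male Tg array. Gstt3 of the theta class had levels of 0.81 in male Tg E2, −0.18 in female Tg, 2.13 in male Tg and −0.39 in male WT, and was 5.76-fold higher in male Tg than in male WT (2.53 log2, SE 0.21). Gsto1, an omega class enzyme that can reduce dehydroascorbate, had 4.39 in male Tg E2, 3.24 in female Tg, 5.65 in male Tg and 3.92 in male WT. It was 3.32-fold higher in male Tg than in male WT and 5.30-fold lower in female Tg than in male Tg, where the female Tg array was the lowest of the 4. Gstk1, of the kappa class, had 1.75 in male Tg E2, 1.32 in female Tg, 2.54 in male Tg and 1.77 in male WT, so it was 2.33-fold lower in female Tg than in male Tg and lay at 0.77 log2 in male Tg over male WT. Gstt1, Gstt2, Gsto2 and Gstz1 stayed within 2-fold in each comparison, and Gstz1, which acts in tyrosine breakdown, had its lowest level in male Tg (4.54, against 5.03 to 5.21 on the other arrays).

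**Figure D3:**
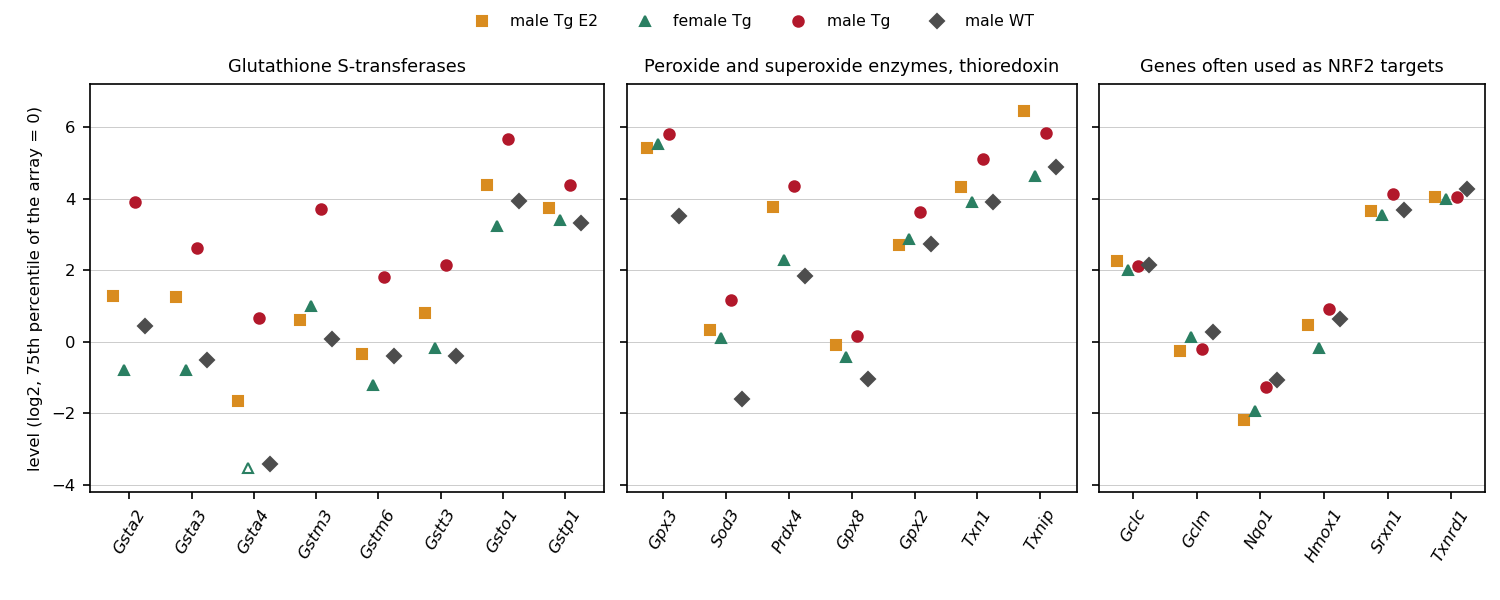
Levels (y axis, log2, 75th percentile of the array at 0) of named members on the male Tg E2 (square), female Tg (triangle), male Tg (circle) and male WT (diamond) arrays, with an open symbol where the probe was not well above background. The male Tg circle is highest for each of the 8 glutathione S-transferases, the male WT diamond is lowest for Gpx3 and Sod3, and the widest span among the NRF2 target genes at the right is 1.12 log2, for Nqo1.

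Of the 3 superoxide dismutases, Sod3 alone was called in any comparison. Sod3, which is secreted and binds the matrix, had levels of 0.32 in male Tg E2, 0.09 in female Tg, 1.17 in male Tg and −1.60 in male WT. It was 6.83-fold higher in male Tg (2.77 log2, SE 0.21) and 3.78-fold higher in male Tg E2 than in male WT, and 2.11-fold lower in female Tg than in male Tg. The male WT array was lowest and the other 3 lay above it. Sod1, the cytosolic copper and zinc enzyme, was nearly level, with 6.95 in male Tg E2, 6.88 in female Tg, 6.89 in male Tg and 6.86 in male WT. Sod2, the mitochondrial manganese enzyme, had 4.94 in male Tg E2, 4.85 in female Tg, 4.82 in male Tg and 5.25 in male WT, and its difference of −0.43 log2 (SE 0.20) for male Tg over male WT did not reach 2-fold.

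Catalase depended on the probe. The brightest Cat probe had levels of 1.41 in male Tg E2, 1.51 in female Tg, 1.80 in male Tg and 1.59 in male WT, and gave 0.20 log2 (SE 0.20) for male Tg over male WT. The other Cat probe read −2.75 in male Tg E2, −1.49 in male Tg and −3.59 in male WT and was not well above background in female Tg. It gave 2.10 log2 (SE 0.31), a 4.29-fold higher level in male Tg than in male WT. That probe (chr2:103297086-103300428, minus strand, mm9) covers 3343 bases of genome and so reads spliced RNA, and it is shown because the size of the catalase difference rests on which probe is used.
Cat second probe: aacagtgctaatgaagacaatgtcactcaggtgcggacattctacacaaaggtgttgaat

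Among the glutathione peroxidases Gpx3 and Gpx8 were called in male Tg over male WT, and 3 of the 5 measured genes were not. Gpx3, the secreted form found in plasma, had levels of 5.41 in male Tg E2, 5.54 in female Tg, 5.82 in male Tg and 3.51 in male WT. Its lowest value was in male WT and the 3 transgenic arrays lay within 0.5 log2 of each other. It was 4.94-fold higher in male Tg and 3.74-fold higher in male Tg E2 than in male WT (SE 0.20 log2 for each). Gpx8, an endoplasmic reticulum peroxidase, had −0.08 in male Tg E2, −0.43 in female Tg, 0.17 in male Tg and −1.05 in male WT, and was 2.32-fold higher in male Tg than in male WT.

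Gpx2, best known from the gut epithelium, lay just under the limit with 2.70 in male Tg E2, 2.88 in female Tg, 3.63 in male Tg and 2.72 in male WT, a 1.88-fold higher level in male Tg than in male WT. Gpx1, the classical cytosolic enzyme, had 5.30 in male Tg E2, 5.43 in female Tg, 5.57 in male Tg and 5.44 in male WT. For Gpx4, which reduces lipid hydroperoxides in membranes, the levels were 5.18 in male Tg E2, 5.22 in female Tg, 5.58 in male Tg and 5.59 in male WT. Both spread by less than 0.5 log2 over the 4 arrays. Gpx7, a relative of Gpx8, was dim and not well above background in male Tg, and was at least 1.70-fold higher in male Tg E2 than in male Tg.

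Of 7 measured peroxiredoxin and sulfiredoxin genes, Prdx4 was the only one called in any comparison. Prdx4, the peroxiredoxin of the endoplasmic reticulum, had levels of 3.77 in male Tg E2, 2.27 in female Tg, 4.36 in male Tg and 1.85 in male WT. It was 5.71-fold higher in male Tg (2.51 log2, SE 0.20) and 3.78-fold higher in male Tg E2 than in male WT, and 4.26-fold lower in female Tg than in male Tg. Thus the male Tg and male Tg E2 arrays were high and the female Tg and male WT arrays low. The second Prdx4 probe was well above background on no array.

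The other peroxiredoxins kept within 2-fold. Prdx1, a cytosolic enzyme, had levels of 4.25 in male Tg E2, 3.68 in female Tg, 4.48 in male Tg and 3.96 in male WT. Prdx2, also cytosolic, had the smallest span of all members at 0.07 log2, with 4.85 in male Tg E2, 4.78 in female Tg, 4.77 in male Tg and 4.80 in male WT. The mitochondrial Prdx3 differed by −0.08 log2 and Prdx5 by 0.39 log2 in male Tg over male WT. Prdx6, which also acts as a phospholipase, differed by −0.58 log2 (SE 0.20) in that comparison, with 6.02 in male Tg E2, 5.65 in female Tg, 5.58 in male Tg and 6.15 in male WT. Srxn1, which restores overoxidised peroxiredoxins, had 3.64 in male Tg E2, 3.53 in female Tg, 4.12 in male Tg and 3.68 in male WT.

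In the thioredoxin system Txn1 and its inhibitor Txnip were called and the reductases stayed within 2-fold. Txn1, the cytosolic thioredoxin, had levels of 4.31 in male Tg E2, 3.89 in female Tg, 5.11 in male Tg and 3.91 in male WT. It was 2.30-fold higher in male Tg than in male WT (1.20 log2, SE 0.20) and 2.33-fold lower in female Tg than in male Tg, so the female Tg and male WT arrays were nearly equal. Txnip, which binds and inhibits thioredoxin and is strongly induced by glucose in islets, had 6.45 in male Tg E2, 4.63 in female Tg, 5.82 in male Tg and 4.88 in male WT. Its highest value was in male Tg E2, where it was 2.97-fold higher than in male WT, and it was 1.92-fold higher in male Tg than in male WT. In female Tg it was 2.28-fold lower than in male Tg by its brightest probe, and the median of its probes did not reach 2-fold.

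Mitochondrial thioredoxin Txn2 differed by −0.07 log2 in male Tg over male WT, and the reductase genes Txnrd1 and Txnrd2 by −0.22 and 0.13 log2. Txnrd3 lay at −0.44 log2. None of these was called in any comparison. The 10 measured thioredoxin domain and thioredoxin-like genes had a median of −0.28 log2 in male Tg over male WT, near the −0.21 log2 of all genes. Txndc16 had 1.26 in male Tg E2, 1.40 in female Tg, 0.76 in male Tg and 1.86 in male WT, and was 2.15-fold lower in male Tg than in male WT (−1.10 log2, SE 0.20). Measured relative to the all-gene median of that comparison it did not reach 2-fold. Txndc2, known as a sperm thioredoxin, was well above background in male Tg only, with a level at least 2.20-fold above male WT.

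Of the genes that make and recycle glutathione, Gss alone was called, and narrowly. Gss, which completes glutathione synthesis, had levels of 0.03 in male Tg E2, −0.10 in female Tg, 0.59 in male Tg and −0.42 in male WT, and was 2.01-fold higher in male Tg than in male WT (1.01 log2, SE 0.21). Gclc, the catalytic subunit of the rate-limiting ligase, had 2.26 in male Tg E2, 2.01 in female Tg, 2.12 in male Tg and 2.14 in male WT. For its modifier subunit Gclm the levels were −0.27 in male Tg E2, 0.12 in female Tg, −0.20 in male Tg and 0.28 in male WT. Glutathione reductase Gsr, which returns oxidised glutathione to its reduced form, varied by less than 0.2 log2, with 3.21 in male Tg E2, 3.24 in female Tg, 3.28 in male Tg and 3.33 in male WT. Gclc, Gclm and Gsr stayed within 2-fold in each of the 4 comparisons.

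Hmox1 and Nqo1, which are much used as NRF2 targets, were not called in male Tg over male WT. Nqo1, a quinone reductase, had levels of −2.20 in male Tg E2, −1.92 in female Tg, −1.26 in male Tg and −1.08 in male WT, and was 2.17-fold lower in male Tg E2 than in male WT. Hmox1, which breaks down heme, had 0.47 in male Tg E2, −0.16 in female Tg, 0.92 in male Tg and 0.62 in male WT on its brightest probe, and was 2.12-fold lower in female Tg than in male Tg. Its other probe gave another order, with −1.81 in male Tg E2, −2.25 in female Tg, −2.94 in male Tg and −1.01 in male WT, a 3.79-fold lower level in male Tg than in male WT. No direction is therefore given for Hmox1. That probe (chr8:77620797-77620856, plus strand, mm9) is shown because it reverses the sign.
Hmox1 second probe: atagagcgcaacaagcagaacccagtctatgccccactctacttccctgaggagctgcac

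Over all members with several probes, 25 other probes of 21 genes could be set against the brightest in male Tg over male WT. The sign was opposite for 4 of them, and those of Cat, Gstm3 and Hmox1 lay more than 1 log2 apart. In female Tg over male Tg the sign was opposite for 8 of 23 other probes, most of them near 0. There the probes of Gstm3 and Hmox1 lay more than 1 log2 apart. In male Tg E2 over male WT the sign was opposite for 4 of 24 other probes, and those of Cat and Gstm7 lay more than 1 log2 apart, with Cat at −0.18 log2 on the brightest probe and 0.84 log2 on the other.

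**Figure D4:**
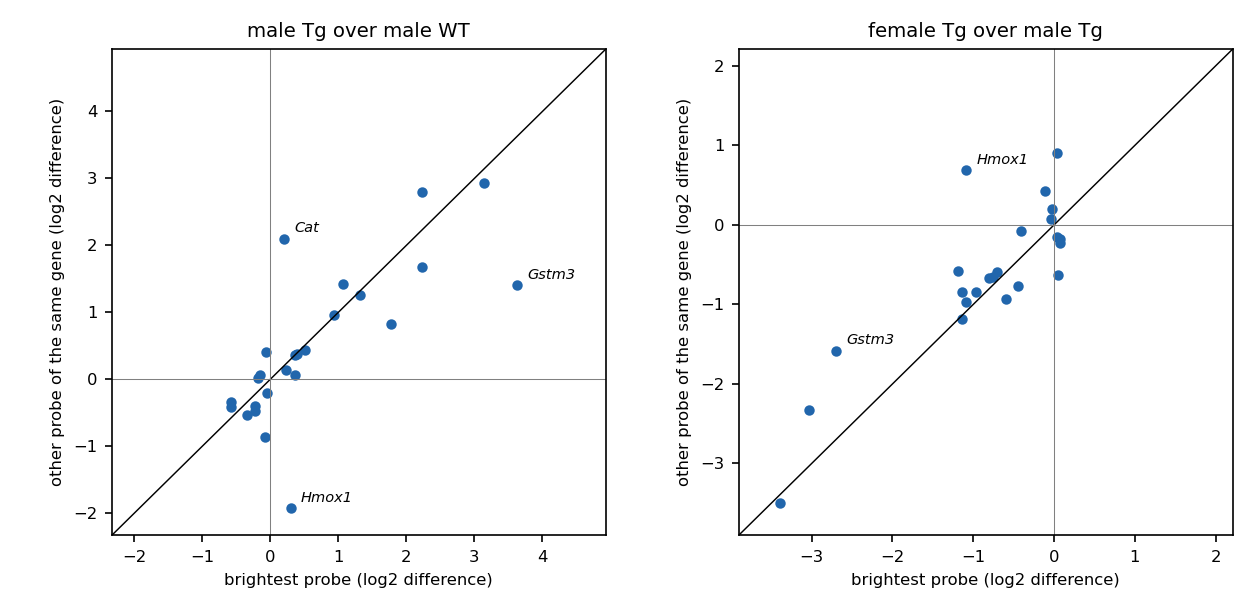
Each other probe of a member (y axis) against the brightest probe of the same gene (x axis), as log2 differences for male Tg over male WT (left) and female Tg over male Tg (right), with the line of equality. Most points follow the line, and the named genes are those whose probes lie more than 1 log2 apart.

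Antioxidant response elements share a short core, here searched as TGACNNNGC on both strands of the RefSeq promoters, which hold 300 bases around a gene's start (build GRCm38.p6). Promoters were found for 57 members, and 12 of these genes (21.1%) held the core, against 3781 of 27025 genes (14.0%). The 12 were Gclm, Gsta3, Gstm5, Gstm7, Nme9 (Txndc6 in the scanner files), Prdx1, Sod1, Srxn1, Txndc11, Txndc2, Txndc5 and Txnrd1. Gsta3 and Gstm7 among them were measured and at least 2-fold higher in male Tg than in male WT, while Gclm, Gstm5, Prdx1, Sod1, Srxn1, Txndc11, Txndc5 and Txnrd1 were not called. Txndc2 and Nme9 were not measured on both arrays. The promoters of Gsta3 (chr1:21240335-21240634, plus strand), Gclm (chr3:122245307-122245606, plus strand) and Prdx1 (chr4:116685349-116685648, plus strand) are shown because the first gene was called and the others were not, and capitals mark the core. A match of letters is a description and no evidence of binding.
Gsta3 promoter: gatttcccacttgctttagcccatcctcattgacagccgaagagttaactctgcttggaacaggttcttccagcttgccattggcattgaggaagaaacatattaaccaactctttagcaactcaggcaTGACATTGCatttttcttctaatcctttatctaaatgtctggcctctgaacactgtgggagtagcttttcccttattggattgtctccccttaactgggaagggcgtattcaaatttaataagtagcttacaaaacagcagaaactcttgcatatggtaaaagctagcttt
Gclm promoter: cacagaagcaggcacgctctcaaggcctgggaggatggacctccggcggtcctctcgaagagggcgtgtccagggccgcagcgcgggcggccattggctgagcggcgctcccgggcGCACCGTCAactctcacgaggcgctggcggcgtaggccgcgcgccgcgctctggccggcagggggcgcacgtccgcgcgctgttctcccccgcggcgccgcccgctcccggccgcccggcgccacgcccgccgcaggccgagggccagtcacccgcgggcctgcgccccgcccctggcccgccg
Prdx1 promoter: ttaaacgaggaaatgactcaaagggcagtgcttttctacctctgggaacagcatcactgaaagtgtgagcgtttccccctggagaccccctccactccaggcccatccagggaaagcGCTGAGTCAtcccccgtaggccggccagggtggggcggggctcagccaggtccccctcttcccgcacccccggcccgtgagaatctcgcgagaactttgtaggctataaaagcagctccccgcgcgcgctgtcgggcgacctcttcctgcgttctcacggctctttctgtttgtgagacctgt

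Markers of other cells also differed between the arrays, and islets isolated by digestion can carry exocrine tissue. The summed level of 14 acinar markers, as a multiple of each array's 75th percentile, was 8157 in male Tg E2, 1683 in female Tg, 12633 in male Tg and 1573 in male WT, with 12 of 14 at least 2-fold higher in male Tg than in male WT. All 14 were well above background on each array. For 7 ductal markers the sums were 144 in male Tg E2, 15.8 in female Tg, 261 in male Tg and 18.2 in male WT. For 8 stellate cell and matrix markers they were 98.8 in male Tg E2, 55.4 in female Tg, 122 in male Tg and 10.8 in male WT. Thus the acinar and ductal sums were high in male Tg and male Tg E2 and low in female Tg and male WT, and the matrix sum was low in male WT alone. The high ductal sums came mostly from Tff2, with levels of 7.91 in male Tg and 6.98 in male Tg E2. Of 5 ductal markers measured in male Tg over male WT, 3 were at least 2-fold higher and 1, Krt7, was lower (−1.04 log2).

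Lymphocyte markers summed to 21.3 in male Tg E2, 63.1 in female Tg, 90.0 in male Tg and 11.5 in male WT, and erythrocyte markers to 51.5 in male Tg E2, 157 in female Tg, 537 in male Tg and 113 in male WT. Macrophage markers lay at 34.6 in male Tg E2, 32.3 in female Tg, 33.5 in male Tg and 18.7 in male WT, and endothelial markers between 39.0 and 52.9. Of the other islet cells, alpha cell markers summed to 723 in male Tg E2, 727 in female Tg, 990 in male Tg and 581 in male WT, with 4 of 5 higher in male Tg than in male WT. Delta cell markers summed to 934 in male Tg E2, 1014 in female Tg, 1183 in male Tg and 489 in male WT, with 3 of 3 higher in male Tg than in male WT. Of all measured genes 15.6% were higher in that comparison. The alpha cell sums came mostly from Gcg (level 9.92 in male Tg) and the delta cell sums mostly from Sst (10.05). The part of these cells in the antioxidant results was not tested, and in bulk islet RNA fewer cells of a type and less RNA per cell cannot be told apart. Beta cell markers summed to 2516 in male Tg E2, 2368 in female Tg, 3300 in male Tg and 2475 in male WT. All 9, insulin genes among them, were well above background on each array, as were all acinar markers. In male Tg over male WT 5 of the 9 were at least 2-fold lower, against 8.68% of all genes. The other 4 stayed within 2-fold, with Ins1 at 0.67, Ins2 at 0.73, Iapp at 0.29 and Mafa at −0.99 log2.

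**Figure D5:**
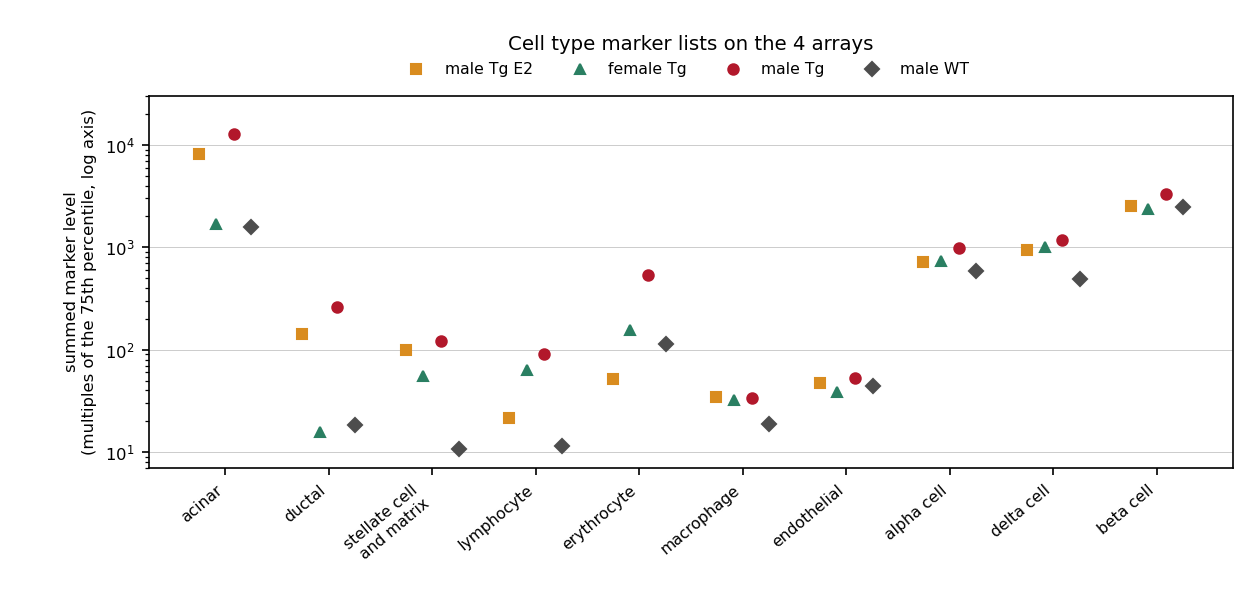
Summed level of each cell type marker list (y axis, multiples of the array's 75th percentile, log axis) on the male Tg E2 (square), female Tg (triangle), male Tg (circle) and male WT (diamond) arrays. The acinar and ductal sums are high in male Tg and in male Tg E2, and the matrix sum is lowest on the male WT array. The beta cell sum comes mostly from Ins1, Ins2 and Iapp, the alpha cell sum from Gcg and the delta cell sum from Sst.

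Genes around the enzymes gave a wider view of the pathway. Of 10 measured NRF2 regulators, 1 was higher and 1 lower in male Tg than in male WT, against 15.6% and 8.68% of all genes. Bach2, a repressor of the same DNA elements, differed by 1.95 log2, and Cul3, the scaffold of the ligase that degrades NRF2, by −1.01 log2. Nfe2l2, which encodes NRF2 itself, lay at 0.31 log2 and its inhibitor Keap1 at −0.44 log2. Of 16 other measured NRF2-responsive genes, 4 were higher and 1 lower, beside the same shares of all genes. The higher ones were Akr1b8 (1.99 log2) and Aldh3a1 (1.76), which remove aldehydes, Ugdh (1.34), which makes UDP-glucuronate, and Ephx1 (1.02), an epoxide hydrolase, and the lower one was the exporter gene Abcc4 (−1.95).

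Of 27 other measured genes of glutathione handling, 9 were at least 2-fold higher and 2 lower in male Tg than in male WT, against 15.6% and 8.68% of all genes. The higher ones included all 3 microsomal glutathione transferase genes, Mgst1 (2.44 log2), Mgst2 (2.04) and Mgst3 (1.56). Ggt1 and Ggt6, of the gamma-glutamyltransferase family that acts on extracellular glutathione, differed by 2.92 and 2.63 log2. Ggt5 of that family lay at 0.97 log2 and was not called. The 2 lower genes were Ggt7, also of that family (−1.65 log2), and Glrx5 (−1.14). Hpgds was well above background in male WT and not in male Tg, where it was at least 4.74-fold lower. Cth, whose product makes cysteine from cystathionine, had levels of −0.75 in male Tg E2, −2.99 in female Tg, 0.91 in male Tg and −2.53 in male WT. It was higher by 3.44 log2 in male Tg than in male WT. In female Tg over male Tg, 0 of 26 measured genes of this list were higher, against 3.51% of all genes, and 9 were lower, against 8.57% of all genes, with Cth at −3.90 log2 and Ggt1 at −3.74 log2.

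Among 14 measured genes of NADPH supply 2 were higher in male Tg than in male WT, the folate enzyme gene Aldh1l1 (2.69 log2) and Idh1 (1.14), and Mthfd1 was lower (−1.81), counts near the 15.6% and 8.68% of all genes. Of 22 measured genes of peroxide and protein repair, Msrb1, a methionine sulfoxide reductase, was higher (1.75 log2), and the endoplasmic reticulum oxidase genes Ero1lb (−1.70) and Ero1l (−1.04) were lower. The repair list thus had 1 gene higher and 2 lower, against the same 15.6% and 8.68% of all genes. Oxidant producers had 7 of 12 measured genes higher and 1 lower, beside those shares. The higher ones included subunits of the phagocyte NADPH oxidase, Cyba (2.45 log2), Ncf1 (1.54) and Ncf4 (2.62), and xanthine dehydrogenase Xdh (3.01), while the monoamine oxidase gene Maob was lower (−2.39). Cybb, another subunit gene of that oxidase, lay at 0.84 log2 and was not called. Mpo, the neutrophil myeloperoxidase, was well above background in male Tg and not in male WT, a difference of at least 4.34 log2. Lymphocyte and macrophage marker sums were also above those of male WT on the male Tg array. Whether such cells bear on the oxidant producers was not tested.

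Setting male Tg E2 against each other male array asks where the implanted males stand. Besides Sod3, Gpx3, Prdx4, Txnip and Gstm7, 3 transferase genes were called higher against male WT. Gsta3 was 3.41-fold, Gsta4 3.36-fold and Gstt3 2.31-fold higher in male Tg E2 than in male WT, whereas Gsta2 lay at 0.84 log2, Gstm3 at 0.53 log2 and Gstm6 at 0.08 log2. Against male Tg, the 7 transferases called lower in male Tg E2 were Gstm3 (8.55-fold lower), Gsta2 (6.14-fold), Gsta4 (5.02-fold), Gstm6 (4.43-fold), Gsta3 (2.58-fold), Gstt3 (2.49-fold) and Gsto1 (2.40-fold). In the same comparison Gpx3 lay at −0.40 log2, Sod3 at −0.85, Prdx4 at −0.59 and Txn1 at −0.80, none of them past 2-fold. Of the 14 acinar markers 2 were at least 2-fold lower in it, Rbpjl (−1.97 log2) and Ctrc (−1.64), against 8.00% of all genes. The other 12 lay within 2-fold, and the median was −0.65 log2. The 5 measured erythrocyte markers were all lower, with a median of −3.32 log2.

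For female Tg over male Tg the transferases called lower were Gsta2 (25.7-fold), Gsta3 (10.5-fold), Gstm6 (8.19-fold), Gstm3 (6.51-fold), Gsto1 (5.30-fold), Gstt3 (4.95-fold), Gstk1 (2.33-fold), Gstm2 (2.21-fold) and Gstp2 (2.12-fold). The 5 others called were Prdx4, Txn1, Txnip, Hmox1 on its brightest probe and Sod3. Gpx3 stood apart from the transferases, at −0.28 log2 (SE 0.20) in this comparison. Sex and disease state cannot be told apart here, because there was no female WT array. Acinar markers were lower in the same comparison for 12 of 14 genes, against 8.57% of all genes, with a median of −3.54 log2.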

How the data were processed

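Islet total RNA of 4 groups was amplified, labelled with Cy3 and hybridised to 1 Agilent mouse array per group, per the labels' protocols. The deposited scanner files hold intensity on a linear scale, and per the file headers the processed signal was background-subtracted by Agilent Feature Extraction 10.7.1.1, whereas the submitters' processing notes name 9.5.1.1. Flags of the scanner software, deposited beside the intensity, mark spots that are outliers or well above background. The deposited series matrix followed the quantile-normalized processed intensity on each array and served as an alternative.

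Outlier spots were left out, spots of a probe were averaged, and values were put on the log2 scale with each array's 75th percentile over non-control probes at 0. Control spots were not used. Probes were named through RefSeq by accession, or by symbol where that failed, and 66 of 67 members matched by accession. Probe positions are those of mm9 in the files, and exon or untranslated region was not assigned. Promoters are RefSeq sequence of GRCm38.p6. Tools were Python 3.11.15, pandas 2.3.3, numpy 2.4.6, Biopython 1.88, R 4.3.3 and limma 3.58.1, the last for normexp (offset 50). Quantile normalization was computed with pandas and numpy. The calculation of differences was tested on simulated data.

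Members, gene lists and marker lists were chosen with earlier results of these data known. Genes named in full are a fixed set of core enzymes and each other member past 2-fold in male Tg over male WT, male Tg E2 over male Tg or female Tg over male Tg, and a few more are named by value. Cat, Gstm3, Gstm7 and Hmox1 second probes, and the sequences printed, were picked after their values were seen. Some genes of the lists are not reported here by name.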

Additional observations from a re-analysis of the deposited data

How the results depend on the processing

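Results were recomputed with quantile normalization, normexp background correction, the series matrix values, no filter on dim probes, a stricter filter, differences relative to the all-gene median, and the median over a gene's probes. No paired analysis was possible because each group has 1 array and the labels give no replicate numbers, and no array could be left out. Of 84 alternative counts and medians, 79 stayed within the set limits. In male Tg over male WT the number of lower members was 0 under quantile normalization, 0 with the series matrix values and 0 relative to the all-gene median, and that last setting gave a member median of 0.36 log2. In male Tg E2 over male WT the number of lower members was 0 with normexp. The cause of these shifts was not tested, except that the all-gene setting by construction subtracts a median of −0.21 log2.

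All 47 called values kept their sign under each alternative in which they were measured. With normexp 37 of 47 stayed past 2-fold, and Gpx8, Gss, Gstm7 and Gstp1 in male Tg over male WT were among those that did not. With quantile normalization 43 did, with the series matrix values 44, with the median over probes 44, relative to the all-gene median 46 and with no filter 47. The stricter filter kept 45 of 45. The uncalled Hmox1 difference in male Tg over male WT was −0.81 log2 as a median over its probes and 0.30 on the brightest. Without replicates, no setting shows how far islets of other mice would differ.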
